A study of Mus musculus with 61 samples.

Results

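The genes described here are 8 transcription factors that lay out the telencephalon, the front part of the brain that forms the cortex, hippocampus, striatum and olfactory bulb: Emx1, Emx2, Lhx2, Six3, Dlx1, Dlx2, Dlx5 and Dlx6. They were taken by gene symbol through the RefSeq accession of each array probe, with the probe of the highest mean signal where a gene had several. Of the 8 genes, 7 had a probe and were followed over all 61 fractions, and no probe was matched to Dlx6, which was not analysed here. Each fraction was a slice of the whole brain, 1 mm wide, of an untreated male C57BL/6J mouse at 8 weeks of age, and it was hybridised to 1 Agilent single-colour array. Of the 6 mice, 2 were cut in each plane: S and So sagittally from left to right (9 and 10 fractions), C and Co coronally from posterior to anterior (13 and 16), and H and Ho horizontally from dorsal to ventral (6 and 7). The So, Co and Ho brains were cut at a slightly oblique angle, so that each plane held 1 mouse per angle. The study matched 28 fractions of S, C and H to fractions of So, Co and Ho, where the S fractions titled 2 to 10 are called S1 to S9 here, and each matched pair (c1 to c13, h1 to h6 and s1 to s9) gave 2 arrays from 2 mice. The pairs were chosen by the study from the correlation of the same arrays, so that the spread within pairs was not independent of that choice, and 5 fractions had no partner.

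The members act in the embryo as a coordinate system. Emx1, Emx2 and Lhx2 (a LIM homeodomain factor, often called a cortical selector gene) are known for their role in the pallium, the dorsal telencephalon from which cortex and hippocampus arise. The Dlx genes lie in neighbouring pairs on the chromosomes (Dlx1 with Dlx2, Dlx5 with Dlx6) and act in the subpallium, where they drive the making of GABA neurons, including the neuroblasts that migrate to the olfactory bulb throughout life. Six3 marks the most anterior neural plate, is needed for the forebrain and eye, and later acts in the making of striatal neurons. All of them are DNA-binding homeodomain proteins, and in the adult brain they remain expressed in parts of the regions they helped to form.

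The signals below are Agilent's background-subtracted intensities in arbitrary units, and they are compared only within a probe. Differences are on the log2 scale after the 75th percentile of each array was subtracted, and they do not rank the genes, since each probe has its own floor. Over the arrays, that percentile ran from 738 to 1919 and the share of probes well above background from 57.9% to 73.1%. Region markers put the coronal and horizontal series in the labelled order, and no marker tests left against right in the sagittal series. The summed level of 5 medulla markers (signal over the array's 75th percentile, summed) was highest in C1 and Co2, that of 5 cerebellum markers in C3 and Co5, that of 5 olfactory bulb markers in C13 and Co15, that of 5 hypothalamus markers in H6 and Ho6, and that of 5 cortex markers in H2 and Ho2. In slices of whole brain, fewer cells of a type and less RNA per cell cannot be told apart.

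Emx1 and Lhx2 were well above background in 61 of 61 fractions. Emx2, Dlx1, Dlx2 and Dlx5 were in 53 of 61, and Six3 was in 38. All 7 members varied over the 28 pairs in limma's moderated F test (adjusted p from 6.83e-13 for Emx1 to 2.91e-20 for Lhx2), where 61.2% of all probes tested passed as well. Over the 13 coronal pairs alone, the 7 members passed, against 47% of probes. Over the 6 horizontal pairs 6 members passed, against 11.9% of probes, and Dlx1 did not (adjusted p 0.0607). Over the 9 sagittal pairs 5 members passed, against 11.1% of probes, and Dlx1 (adjusted p 0.222) and Dlx2 (0.306) did not. The calls near the threshold moved with the setting. With the mouse as a replicate block Dlx1 also passed over the horizontal pairs (limma adjusted p 0.0455), whereas Dlx2 (0.0307) was lost with the median as the scale (0.0504) and in the authors' normalized table (0.0542), and 3 members passed with the slide as a fixed block. With the slide as a random block all 7 passed over the sagittal pairs (Dlx1 0.00696 and Dlx2 0.0120).

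The members changed most steeply along the coronal axis, and 6 of the 7 members had a boundary between the same slices. Dlx1 read 2.96, 3.43, 3.27 and 5.65 in C1 to C4 and 365 in C5. In the other mouse it read 10.9, 7.15, 5.32 and 8.52 in Co2 to Co5 and 301 in Co6. All 8 of those posterior values were not well above background, and every fraction in front of them was. Dlx2 stepped from 3.80 to 272 between C4 and C5 and from 3.18 to 190 between Co5 and Co6. Dlx5 stepped from 4.58 to 73.4 and from 7.08 to 61.8. Emx2 behaved in the same way, with 8.03 in C4 against 331 in C5 and 13.4 in Co5 against 298 in Co6. For Emx1 and Lhx2 the posterior slices carried a signal of their own, and the step at this place was from 387 to 1360 and from 486 to 1318 for Emx1, and from 873 to 12418 and from 1004 to 11141 for Lhx2. Six3 had no such common step: it read 14.2 in C4 and 16.2 in C5, and 17.2 in Co5 and 51.0 in Co6. Slides changed between C4 and C5, whereas Co5 and Co6 lay on 1 slide, and the step was present in both mice.

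**Figure D1:**
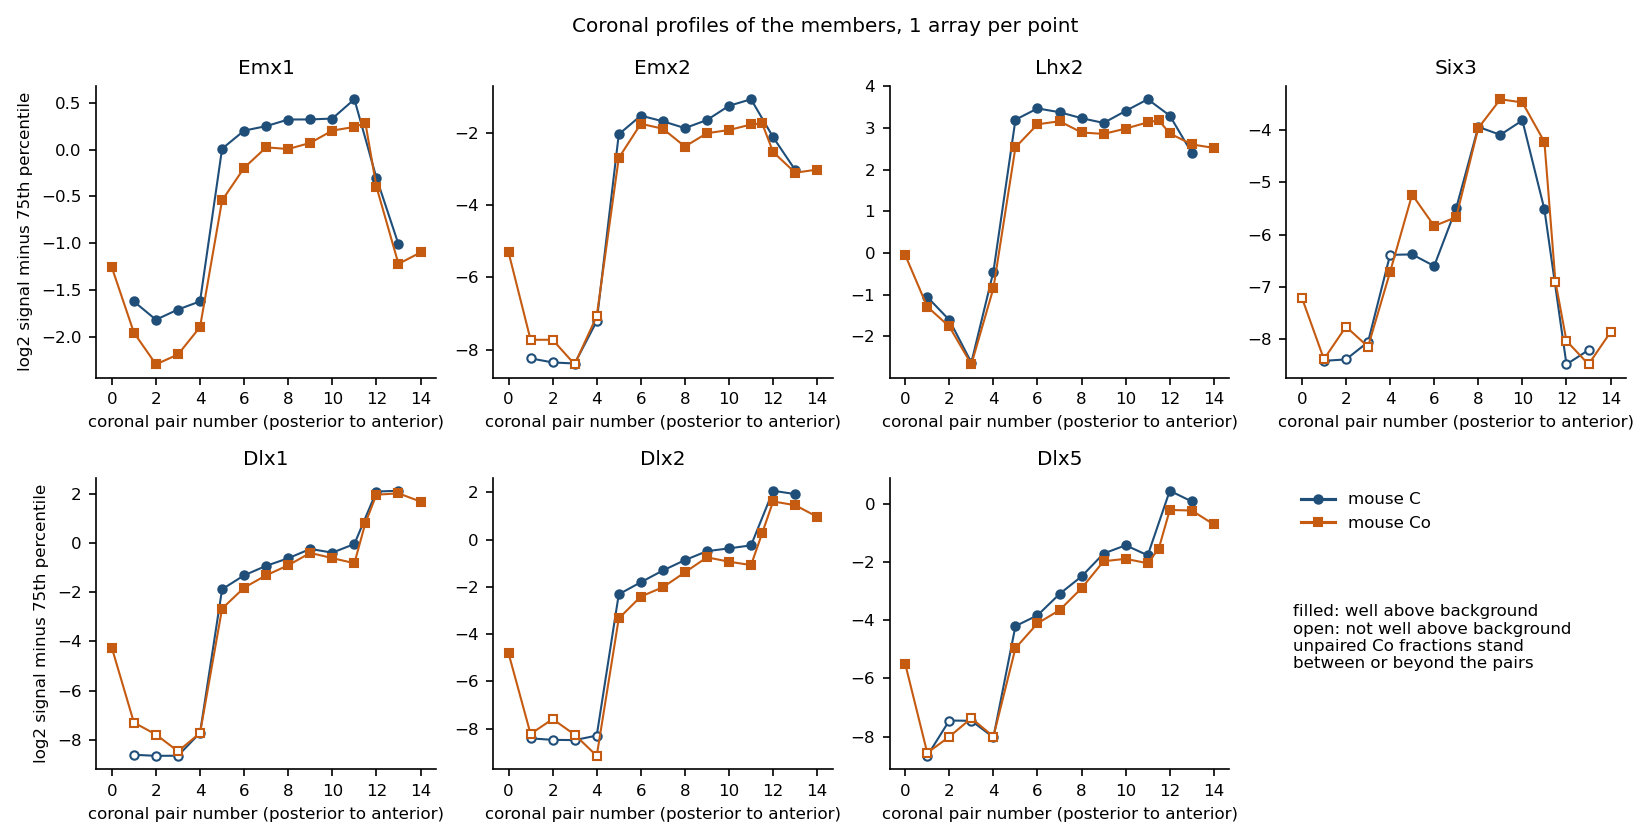
Coronal profiles of the 7 members, with the pair number from posterior to anterior on the x axis and log2 signal minus the 75th percentile of the array on the y axis; each point is 1 array, circles are mouse C, squares are mouse Co, and open symbols are not well above background. Emx2, Dlx1, Dlx2 and Dlx5 are open in pairs c1 to c4 and filled from c5 on, and Six3 is filled in the middle of the series with open symbols in c12 and c13.

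The rostral pairs c9 to c13 (10 arrays) were then compared with the caudal pairs c1 to c4 (8 arrays). The groups shared no slide, so that slide and position went together here. Dlx1 ran from 991 to 7178 rostrally, with a median of 1225, and from 2.96 to 10.9 caudally, with a median of 5.48. Dlx2 ran from 853 to 5673 (median 1041) against 3.18 to 8.19 (median 3.84), and Dlx5 from 333 to 1702 (median 473) against 2.87 to 11.4 (median 6.63). Since no caudal array was well above background, the folds were set against the higher of the probe's own signal and the lowest signal of any probe well above background on that array. Dlx1 read 10.9 in Co2, above that lowest signal (6.47), and was still not well above background. These folds are therefore no strict lower limits. On that scale Dlx1 was 353-fold higher rostrally, Dlx2 356-fold and Dlx5 104-fold. By the probe used, Emx2, which marks the developing pallium, was 54.8-fold higher on the same scale, with 114 to 554 rostrally (median 415) and 3.82 to 13.4 caudally (median 6.50). Its other probe, well above background on 3 of the 8 caudal arrays, gave 5.52-fold.

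Lhx2 and Emx1 could be measured on both sides. Lhx2 ran from 4871 to 16119 rostrally (median 13155) and from 212 to 1004 caudally (median 510), a log2 difference of 4.58 ± 0.10 (SE), or 23.9-fold. Emx1 ran from 458 to 2166 (median 1570) against 323 to 486 (median 397), with a log2 difference of 1.77 ± 0.10, or 3.40-fold. After scaling, the groups did not overlap in 6 of the 7 members (the unscaled signals of Emx1 did), against 10.5% of all probes. Six3 was the exception, with 3.11 to 169 rostrally (median 47.5) and 3.38 to 17.2 caudally (median 5.90), and its log2 difference was 2.01 ± 0.21, with 1 of the 8 caudal arrays well above background. All 7 members were higher rostrally in the limma fit (adjusted p from 1.75e-09 for Six3 to 4.43e-26 for Dlx5), against 20.4% of probes that were higher, 28.9% that were lower and 49.2% called in either direction. Both mice showed the direction in all 7 members, for example 1.67 in C and 1.86 in Co for Emx1 and 4.62 in C and 4.54 in Co for Lhx2. Without the 2 most rostral pairs, an alternative chosen after the data were seen, the 7 members passed as well, and the log2 difference of Six3, which rests on the same caudal arrays near background, was 3.70. Over all probes the median of this contrast was −0.12 with the 75th percentile as the scale and 0.02 with the median as the scale. In the same groups the summed cortex markers ran from 0.759 to 8.61 rostrally and from 0.320 to 0.396 caudally, and those of the cerebellum from 4.31 to 19.6 and from 23.8 to 143, and their part was not tested.

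Lhx2 was not flat within the posterior slices. Its pair means fell from −1.17 in c1 and −1.69 in c2 to −2.65 in c3 and then were −0.65 in c4, and neighbours in that order did not overlap between their 2 arrays. The lowest signals were 212 in C3 and 295 in Co4, where the summed cerebellum markers were at 121 and 132. Those markers were at 111 in C4 and 143 in Co5, where Lhx2 read 873 and 1004, and their part was not tested. Emx1 lay between 376 and 402 over C1 to C4, and read 445, 323, 413 and 486 in Co2 to Co5.

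The promoter windows of 6 of the 8 members were matched in RefSeq (GRCm38.p6), each covering 250 bases before and 50 after the annotated start, and Dlx5 and Dlx6 had no entry. The windows of Six3 and Dlx1 lie inside the spans annotated for those genes (chr17:85613608-85626191 and chr2:71528113-71533981), as does the second window of Lhx2, so that the start they are built on is not the outer end of the span. Those of Dlx1 and Dlx2, which moved together over the fractions, of Emx2, which shared their posterior boundary, and of Six3, which did not, are printed 5′ to 3′ on the strand of the gene. They lie at chr2:71529195-71529494 (Dlx1, plus strand), chr2:71546705-71547004 (Dlx2, minus strand), chr19:59458440-59458739 (Emx2, plus strand) and chr17:85620584-85620883 (Six3, plus strand). Capitals mark matches on either strand to a CCAAT box (CCAAT or ATTGG), to the homeodomain core TAATTA and to a TATA box (TATAAA or TTTATA); no 2 of the matches overlapped.
Dlx1: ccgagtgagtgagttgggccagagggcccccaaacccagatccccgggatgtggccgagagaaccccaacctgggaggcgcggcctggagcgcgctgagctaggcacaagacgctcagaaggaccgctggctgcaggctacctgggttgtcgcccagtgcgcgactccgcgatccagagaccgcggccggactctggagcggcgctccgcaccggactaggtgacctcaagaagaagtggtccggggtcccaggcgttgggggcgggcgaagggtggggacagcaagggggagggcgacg
Dlx2: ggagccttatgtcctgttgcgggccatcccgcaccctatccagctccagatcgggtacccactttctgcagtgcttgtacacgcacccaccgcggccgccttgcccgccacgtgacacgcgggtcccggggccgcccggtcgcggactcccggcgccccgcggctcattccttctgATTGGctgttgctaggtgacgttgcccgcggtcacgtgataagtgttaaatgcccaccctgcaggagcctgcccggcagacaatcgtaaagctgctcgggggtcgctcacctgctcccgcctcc
Emx2: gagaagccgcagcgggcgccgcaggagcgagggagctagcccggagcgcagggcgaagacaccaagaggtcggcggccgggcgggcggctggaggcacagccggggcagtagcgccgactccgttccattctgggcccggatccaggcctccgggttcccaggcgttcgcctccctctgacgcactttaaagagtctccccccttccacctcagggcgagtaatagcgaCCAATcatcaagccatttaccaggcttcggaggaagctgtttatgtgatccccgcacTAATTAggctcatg
Six3: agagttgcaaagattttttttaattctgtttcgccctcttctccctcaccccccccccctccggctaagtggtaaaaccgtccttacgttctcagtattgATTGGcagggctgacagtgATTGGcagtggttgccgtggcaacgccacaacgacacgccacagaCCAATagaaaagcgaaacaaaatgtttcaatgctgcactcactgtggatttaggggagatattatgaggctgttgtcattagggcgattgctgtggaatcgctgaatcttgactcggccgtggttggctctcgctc

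A CCAAT box was found once in the Dlx2 window, once in that of Emx2 and 3 times in that of Six3, and 37.4% of the 32851 mouse windows of this length hold it. The core TAATTA, which many homeodomain proteins bind, was present in Emx2 alone among the 7 windows of the members (2 of them for Lhx2), 37 bases downstream of the start, and in 5.29% of all windows. None of the 7 windows held the TATA box, which 13.6% of all windows did. Emx1 had 37 CG dinucleotides in its 300 bases, the windows of Lhx2 34 and 29, Dlx2 29, Dlx1 27, Emx2 26 and Six3 14, and the median over all windows was 7. The window of Six3 was the least rich in G and C of the 7, with 50% against 64.3% to 74.7% in the others and a median of 52.7% over all windows. A match of letters is a description of the window and no evidence of binding.

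In front of the boundary the members parted. The Dlx genes at first climbed towards the front: Dlx5 read 73.4, 83.7, 151, 218 and 366 in C5 to C9, and 61.8, 109, 131, 229 and 458 in Co6 to Co10. Dlx1 rose over the same slices from 365 to 1008 in C and from 301 to 1354 in Co. Emx1 and Lhx2 moved less over those slices, with Emx1 between 1360 and 1542 and Lhx2 between 10428 and 13505 in C5 to C9. In Co6 to Co10 Emx1 lay between 1318 and 1890 and Lhx2 between 11141 and 15919. Emx2 lay between 331 and 418 in C5 to C9 and between 298 and 560 in Co6 to Co10. The Dlx climb was not steady up to the tip: Dlx5 read 487 in C10 and 333 in C11. Dlx1 read 991 and 1097 in C10 and C11, and 1087 and 1031 in Co11 and Co12. Six3 was low behind and high in the middle, reading 12.3 in C6, 80.1 in C8, 70.2 in C9, 92.8 in C10 and 24.7 in C11, and 32.7 in Co7, 109 in Co9, 169 in Co10, 151 in Co11, 97.9 in Co12 and 15.0 in Co13.

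The rostral tip (pairs c12 and c13) was compared with the striatal level (c9 and c10), 4 arrays against 4. Here 6 of the members fell into 3 classes: the Dlx genes rose, Emx1 and Emx2 fell, and Six3 was no longer well above background. Dlx1 read 5285, 3996, 7178 and 6766 in C12, C13, Co14 and Co15, against 1008, 991, 1354 and 1087 in C9, C10, Co10 and Co11. Dlx2 read 5232, 3506, 5673 and 4614 against 853, 1011, 1071 and 875, and Dlx5 read 1702, 974, 1599 and 1431 against 366, 487, 458 and 451. In none of the 3 did the groups overlap. The log2 differences were 2.46 ± 0.35 (SE) for Dlx1, 2.40 ± 0.35 for Dlx2 and 1.77 ± 0.22 for Dlx5, or 5.51-, 5.29- and 3.41-fold, with limma adjusted p of 1.15e-06, 2.00e-06 and 1.37e-07. Of the 7 members 3 were called higher and 3 lower, against 14.7% and 17.2% of all probes (31.9% in either direction).

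Six3 read 3.48, 3.11, 7.05 and 4.69 at the tip, none of them well above background, and 70.2, 92.8, 169 and 151 at the striatal level, all of them well above it. On the scale used for the caudal Dlx values, which gives no strict lower limit, it was 23.5-fold lower at the tip (limma adjusted p 8.31e-13). Emx1 read 1012, 458, 1406 and 720 at the tip and 1496, 1645, 1890 and 1925 at the striatal level, and Emx2 read 289, 114, 323 and 197 against 386, 554, 450 and 445. Both fell, by 0.96 ± 0.15 and by 0.99 ± 0.20 on the log2 scale (limma adjusted p 7.33e-06 and 2.76e-04). Lhx2 read 12276, 4871, 13532 and 10229 at the tip and 10428, 13909, 13048 and 13262 at the striatal level. Its groups overlapped, and its log2 difference of −0.30 ± 0.15 did not pass the threshold (limma adjusted p 0.144), whereas it did with the mouse as a replicate block (0.0306). In the other 6 members the groups did not overlap, against 26.5% of all probes.

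Between the same groups, the summed level of the 5 olfactory bulb markers ran from 73.7 to 102 at the tip and from 1.14 to 1.53 at the striatal level, and that of the 6 striatum markers from 2.50 to 3.85 and from 28.4 to 42.7. The cortex markers ran from 0.759 to 1.75 at the tip and from 5.00 to 6.77 at the striatal level, the 3 hippocampus markers from 5.61 to 9.75 and from 13.6 to 19.0, and the thalamus markers from 3.37 to 3.80 and from 4.43 to 7.30. All 5 bulb markers were well above background on every tip array. Their part in the members' differences was not tested. The unpaired fraction Co13, which lies between them, read 3136 for Dlx1, 15.0 for Six3 and 22.0 for the summed bulb markers, and Co16, in front of the last pair, read 4590, 6.14 and 78.7.

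Along the horizontal axis the pallial and subpallial members ran in opposite directions. Dorsal pairs h1 and h2 were compared with ventral pairs h5 and h6, 4 arrays against 4. No slide held arrays of both groups, so that slide and position went together in this contrast. Emx1 read 2126, 1438, 1790 and 1109 in H1, H2, Ho2 and Ho3 and 652, 856, 716 and 764 in H5, H6, Ho6 and Ho7. Lhx2 read 13150, 8446, 8856 and 5909 against 4245, 6829, 4323 and 5915, and Emx2 read 469, 262, 323 and 235 against 171, 266, 145 and 230. The Emx1 groups were apart, and those of Lhx2 and Emx2 overlapped. In both of these genes and both mice the most ventral slice was higher than the slice above it. The log2 differences, dorsal minus ventral, were 1.02 ± 0.15 (SE) for Emx1, 0.69 ± 0.15 for Lhx2 and 0.60 ± 0.20 for Emx2, with limma adjusted p of 1.21e-05, 0.00177 and 0.0458. The Emx2 call was lost with normexp and quantile normalization (0.0782) and with all non-control probes tested (0.0516).

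Six3 read 3.85, 13.4, 8.55 and 30.0 dorsally and 74.0, 131, 72.8 and 50.2 ventrally, with a log2 difference of −2.90 ± 0.31 and with 2 of the 4 dorsal arrays well above background. Dlx5 read 98.9, 93.2, 112 and 90.6 against 261, 349, 309 and 166, and its log2 difference was −1.47 ± 0.22. Dlx1 read 396, 326, 428 and 307 against 1020, 661, 991 and 456, and Dlx2 read 287, 227, 267 and 195 against 675, 517, 704 and 320. Their log2 differences were −1.10 ± 0.35 and −1.19 ± 0.35. In all 4 genes every ventral value lay above every dorsal one, and the limma adjusted p was 7.54e-08 for Six3, 1.39e-05 for Dlx5, 0.0300 for Dlx1 and 0.0190 for Dlx2.

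Thus 3 members were higher dorsally and 4 ventrally, against 5.78% and 8.44% of probes (14.2% in either direction), and 5 had groups apart, against 22%. The weaker of these calls were lost in some fits without 1 array. For Dlx1 the call was lost when any 1 of the 8 arrays of the contrast was left out (highest limma adjusted p 0.0955), for Dlx2 without H2, H6, Ho2 or Ho6 (highest 0.0741), and for Emx2 in 25 of 56 fits (highest 0.240, without H1). With the slide as a fixed block, 2 members kept a call, and Lhx2, Dlx5, Dlx1, Dlx2 and Emx2 did not (adjusted p 0.359, 0.0754, 0.304, 0.360 and 0.375). Dlx1 and Dlx2 peaked inside the series in H, at H4 (1131 and 793), and at Ho6 (991) and Ho5 (803) in the other mouse, while Dlx5 peaked at H6 (349) and Ho6 (309) and Six3 at H6 (131) and Ho6 (72.8). The summed bulb markers ran from 4.80 to 11.3 ventrally and from 0.885 to 1.57 dorsally, those of the hypothalamus from 38.9 to 77.5 and from 0.222 to 0.337, and those of the cortex from 1.17 to 2.22 and from 4.46 to 7.16, and their part was not tested.

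**Figure D2:**
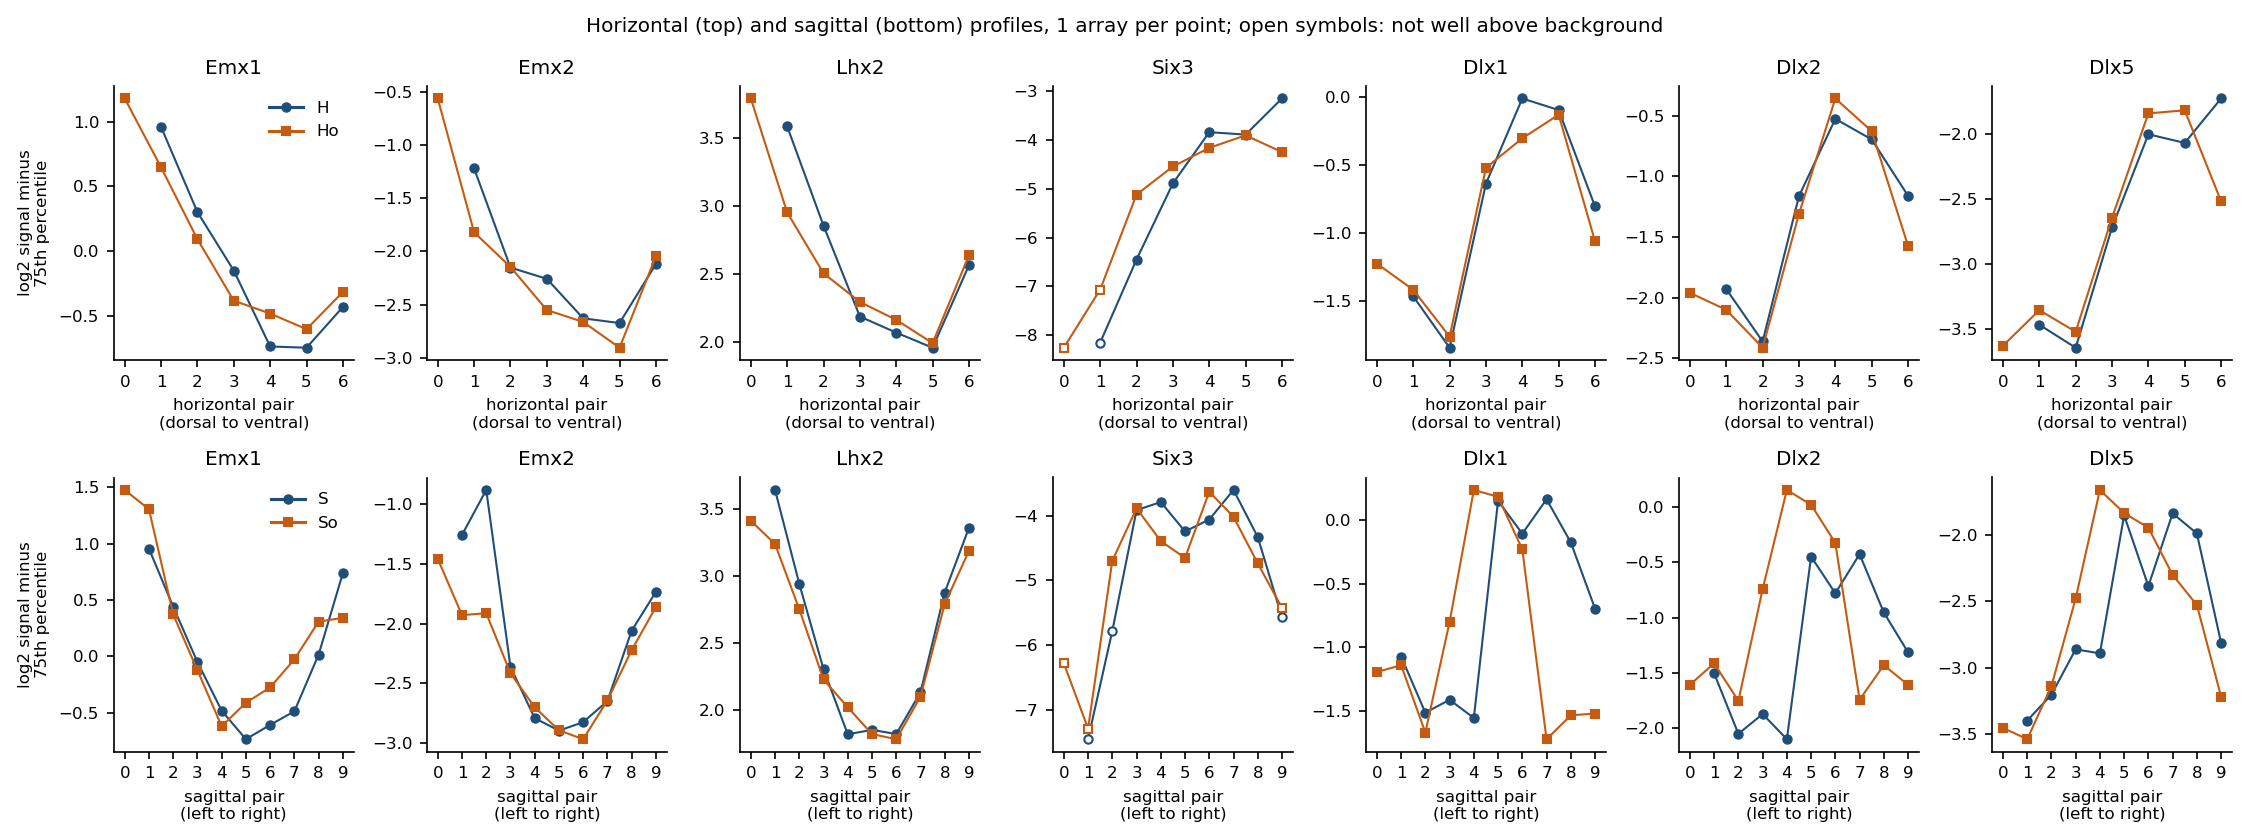
Profiles of the 7 members in the horizontal series (top row, H and Ho) and the sagittal series (bottom row, S and So), with the pair number on the x axis and log2 signal minus the 75th percentile of the array on the y axis; each point is 1 array and open symbols are not well above background. Emx1 and Lhx2 form a trough at the sagittal midline, and Dlx1 is high from S5 to S8 in one mouse and from So5 to So7 in the other.

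In the sagittal series the midline pairs s4 to s6 (6 arrays) were compared with the lateral pairs s1, s2, s8 and s9 (8 arrays). Lhx2 ran from 3598 to 5235 at the midline (median 4118) and from 7075 to 13623 laterally (median 9472). Emx1 ran from 624 to 1083 (median 786) against 1071 to 2934 (median 1532), and Emx2 from 140 to 199 (median 158) against 254 to 498 (median 297). The pallial members thus fell at the midline, by 1.25 ± 0.12 (SE) for Lhx2, 1.08 ± 0.12 for Emx1 and 1.11 ± 0.16 for Emx2 on the log2 scale (limma adjusted p 2.15e-09, 3.04e-08 and 2.68e-06), and in these 3 genes the scaled values of the groups did not overlap, against 9.15% of all probes. In the same groups the summed cortex markers ran from 1.93 to 2.76 at the midline and from 2.83 to 7.93 laterally, those of the hypothalamus from 12.5 to 31.3 and from 0.277 to 6.27, those of the thalamus from 11.6 to 13.4 and from 4.47 to 7.59, and those of the bulb from 3.44 to 13.1 and from 0.632 to 7.69. Their part in the members' differences was not tested.

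Six3 rose at the midline, with 52.8 to 106 (median 61.8) against 6.20 to 55.4 (median 21.8). It was well above background on all 6 midline and on 3 of the 8 lateral arrays, and its log2 difference was 1.53 ± 0.24 (limma adjusted p 1.43e-05). Dlx1 ran from 348 to 1526 (median 1138) against 322 to 940 (median 485), Dlx2 from 238 to 1441 (median 905) against 222 to 547 (median 404), and Dlx5 from 138 to 409 (median 314) against 99.9 to 267 (median 121). Their log2 differences were 0.95 ± 0.27, 0.92 ± 0.27 and 0.88 ± 0.17 (limma adjusted p 0.00961, 0.0123 and 2.09e-04), and the groups overlapped in all 3. In all, 4 members were higher at the midline and 3 lower, against 10.5% and 9.09% of probes (19.6% in either direction).

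The sagittal Dlx profiles were not symmetric, and the 2 mice differed in shape. In mouse S, Dlx1 read 518, 322, 381 and 348 in S1 to S4 and then 1156, 958, 1196, 940 and 576 in S5 to S9. In mouse So it read 706 in So4, 1526, 1507 and 1119 in So5 to So7, and 393 in So8. The midline minus lateral difference of Dlx1 was therefore 0.36 in S and 1.53 in So, and that of Dlx2 was 0.35 and 1.50. Without So5 neither passed (limma adjusted p 0.0881 for Dlx1 and 0.125 for Dlx2). The summed bulb markers followed a similar course, with 3.44 in S4, 5.95 in S5, 9.76 in S6, 8.54 in S7 and 7.69 in S8, and 6.66 in So4, 11.0 in So5, 9.44 in So7 and 1.81 in So8. Whether the position of the bulbs in these slices accounts for the Dlx values was not tested. Lhx2, for comparison, read 5001 in S3 and 4663 in S7, at equal distance from the middle fraction of S. At the ends of S it read 13623 in S1 and 9576 in S9, and was not symmetric there.

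**Figure D3:**
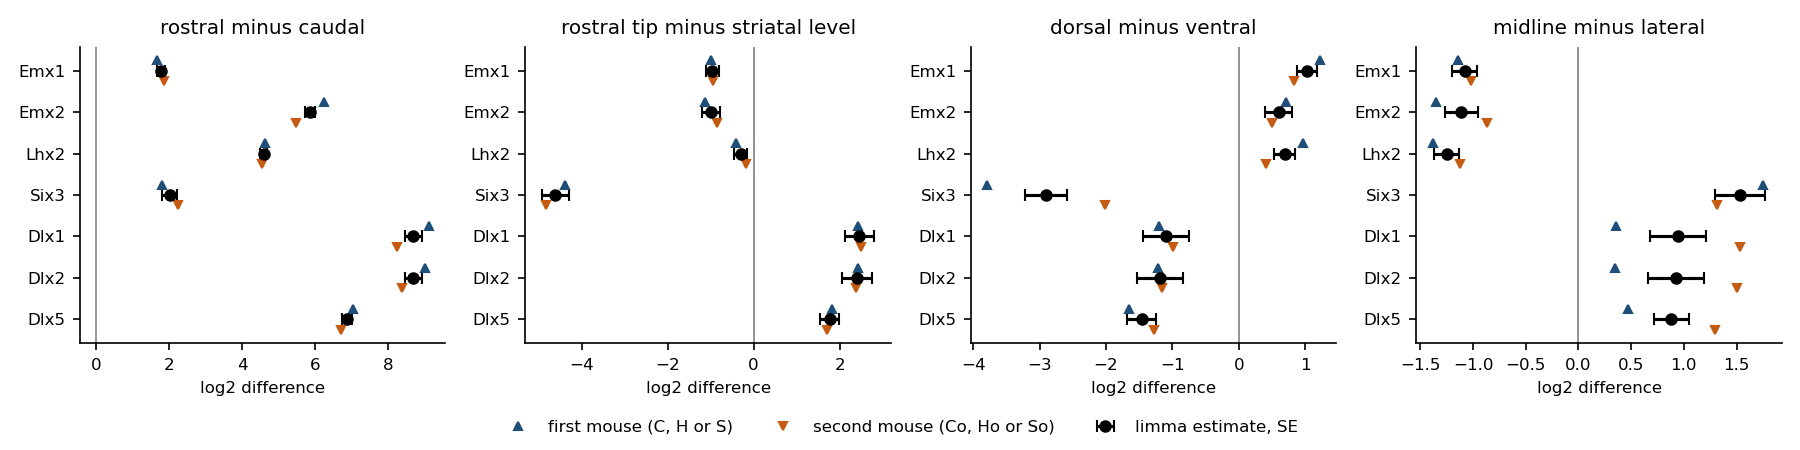
Log2 differences of the 7 members in the 4 contrasts, with circles and bars for the limma estimate and its SE and with triangles for the difference within each mouse; values right of 0 are higher in the group named first, and those of Emx2 and the Dlx genes (rostral minus caudal) and of Six3 (tip) rest on a group at background. For Six3 (rostral minus caudal), 6 of the 10 rostral and 1 of the 8 caudal arrays were well above background. Every member has the same direction in both mice, and the Dlx genes have a smaller midline minus lateral difference in S (0.36 for Dlx1) than in So (1.53).

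The 28 pair means of each member were put in order. They spanned 6.10 log2 units for Lhx2 and 3.18 for Emx1, with a median range within pairs of 0.20 and 0.28. For Emx2, Dlx1, Dlx2 and Dlx5 the pairs c1 to c4 were not well above background and have no order among themselves, and for Six3 the same held at both ends of the coronal series. For Dlx1, c13 and c12 stood first, apart from s5 at the next rank. Of the 27 neighbours in that order, 25 overlapped for Emx1, Six3 and Dlx2, 22 for Dlx5, 20 for Emx2 and 19 for Lhx2 and Dlx1, and these do not differ beyond their spread. The pair with the highest mean was s1 for Emx1 and Lhx2, s2 for Emx2, c10 for Six3, c13 for Dlx1 and c12 for Dlx2 and Dlx5.

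Over the 61 fractions, after each series was centred on its mean, Dlx1 and Dlx2 had a Pearson r of 0.995, Dlx2 and Dlx5 of 0.980 and Dlx1 and Dlx5 of 0.970. Emx2 and Lhx2 had an r of 0.983, while Emx1 had 0.865 with Emx2 and 0.873 with Lhx2. Six3 had a lower r with the other members over all fractions, from 0.128 (Emx1) to 0.348 (Dlx5). These values include those at background and describe slices that share a brain and, for neighbours, an array slide, and they differed between planes: Lhx2 and Dlx1 had an r of 0.836 over all fractions and of 0.923 within C, but of −0.283 within S and −0.831 within H. Six3 and Emx1 had an r of 0.749 within C and 0.73 within Co. In S, So, H and Ho their r was −0.879, −0.861, −0.952 and −0.991. Six3 and Dlx5 had 0.69, 0.781, 0.93 and 0.807 in those series, and 0.355 and 0.264 within C and Co. Dlx1 and Dlx2, in contrast, stayed between 0.960 and 0.998 within each of the 6 series.

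**Figure D4:**
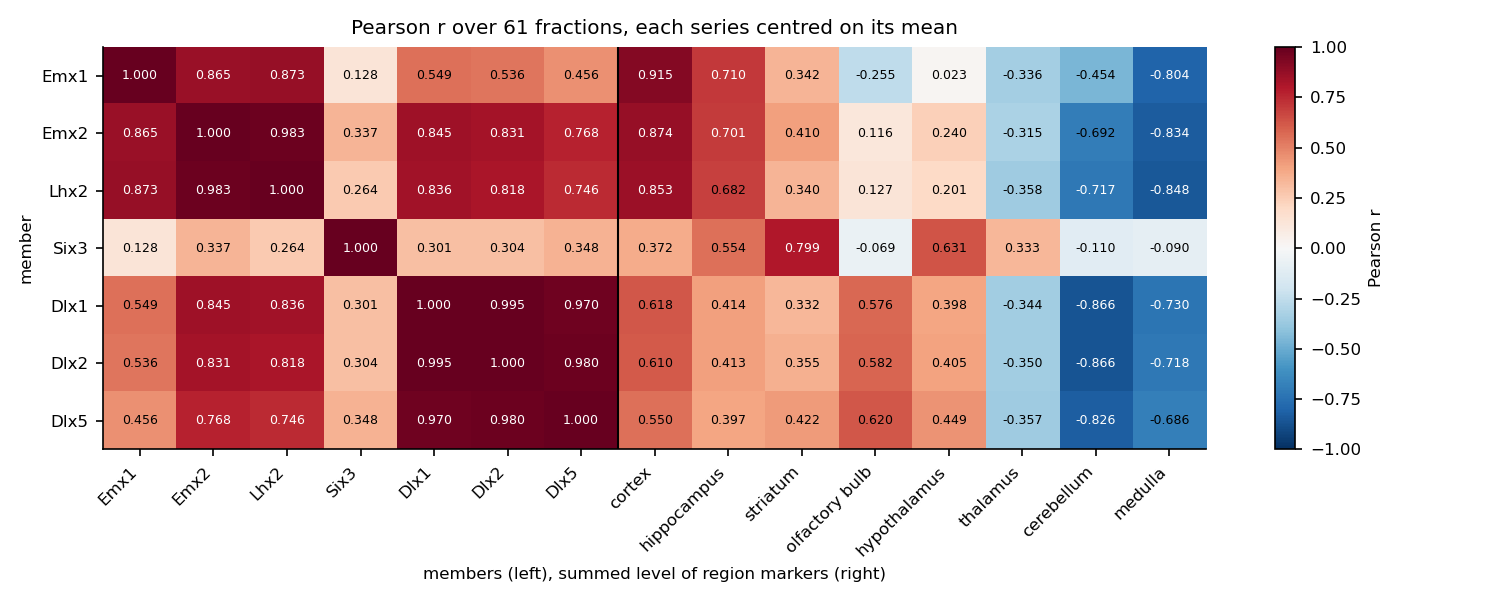
Pearson r over 61 fractions between the 7 members (left of the line) and between the members and the log2 summed level of 8 lists of region markers (right), each series centred on its mean; red is positive and blue negative. Dlx1 and Dlx2 have an r of 0.995, and Six3 has its highest r with the striatum markers (0.799).

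Each member was also set beside 13013 genes, 1 probe per gene, that were well above background in at least 31 fractions. The 3 closest to Emx1 were Pdzrn3 (r 0.973), Kifc2 (0.972) and Epop (0.972). Emx2 was closest to Rin1 (0.985), Lhx2 (0.983) and Krt12 (0.983), and Lhx2 to Emx2, Krt12 (0.977) and Dtl (0.975). Six3 had looser neighbours, Prkch (0.867), Pde10a (0.859) and Drd2 (0.839), of which Pde10a, a phosphodiesterase, and Drd2, a dopamine receptor, are known for their expression in striatal projection neurons. Dlx1 had Dlx2 and Dlx5 among its closest genes, Dlx2 had Dlx1 and Dlx5, and Dlx5 was closest to Dlx2, Dlx1 and Baiap2l2 (0.949). Over the same fractions, the r with the summed markers of the cortex was 0.915 for Emx1, 0.874 for Emx2 and 0.853 for Lhx2. For Six3 it was 0.799 with the markers of the striatum and 0.631 with those of the hypothalamus. For the Dlx genes it was 0.550 to 0.618 with the cortex, 0.576 to 0.620 with the bulb and −0.866 to −0.826 with the cerebellum.

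Other regulators of the same territories were followed as lists. Of 17 subpallial regulators tested (20 listed), 12 were higher rostrally and 3 lower, with a median log2 difference of 1.77 against −0.12 over all probes, of which 20.4% were higher and 28.9% lower. Sp8 (5.80), a zinc finger gene of the bulb interneuron lineage, Vax1 (4.20), Meis2 (2.34) and Gsx2 (2.63) rose, and Ebf1 fell by 3.39. At the rostral tip 3 of the 17 were higher than at the striatal level, among them Meis2 (1.40) and Sp8 (4.37), the latter named after its value was seen, and 12 were lower, among them Nkx2-1 (−4.82), the ventral telencephalic and hypothalamic selector, and Lhx8 (−5.59), with a median of −1.20. Dorsally 1 was higher and 10 lower, with Nkx2-1 (−4.94), Isl1 (−6.52) and Lhx8 (−6.21) among the latter. At the midline 9 were higher, including Nkx2-1 (2.23) and Sp8 (2.29). Of all probes, 14.7% were higher and 17.2% lower at the tip, 5.78% and 8.44% dorsally, and 10.5% and 9.09% at the midline.

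Of 18 pallial regulators, 7 were higher rostrally and 6 lower, with a median of 0.04, where 20.4% and 28.9% of all probes were. Tbr1 (6.53), a marker of deep cortical layers, Fezf2 (6.56) and Bcl11b (4.02) rose, and Lhx5 fell by 4.20 and Neurod1, which cerebellar granule cells also express, by 4.31. At the tip 4 were higher, including Pax6 (2.16) and Eomes (6.34), which also belongs to the bulb markers, and 8 lower, including Neurod6 (−2.49) and Tbr1 (−1.98). Dorsally 8 were higher and 2 lower, with a median of 0.47 against 0.01 over all probes, and at the midline 3 were higher and 8 lower. The shares of all probes higher and lower were 14.7% and 17.2% at the tip, 5.78% and 8.44% dorsally, and 10.5% and 9.09% at the midline. Of the 8 tested relatives of Six3 and regulators of the anterior hypothalamus (11 listed), 3 were called rostrally, against 49.2% of all probes, where Six2 was higher (2.24) and Six4 was lower (−2.05). At the tip 5 were called, 3 higher and 2 lower, against 31.9% of all probes in either direction. Dorsally Six6 alone was called (−1.55), against 14.2% of probes, and at the midline the smallest limma adjusted p was 0.198, for Six4.

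A comparison of the mice asked whether a member differed between the 2 brains of a plane over all its pairs. Of the 7 members, Emx1 (limma adjusted p 4.66e-04) and Lhx2 (9.17e-04) passed the moderated F test over the 3 planes, against 63.1% of all probes. In the coronal plane, Co lay below C by 0.31 ± 0.06 (SE) for Emx1, 0.30 ± 0.06 for Lhx2 and 0.33 ± 0.11 for Dlx5 on the log2 scale, and 26.6% of probes were called lower there. In the sagittal plane the smallest limma adjusted p of a member was 0.170 (Emx2) and in the horizontal plane 0.583 (Lhx2). The mouse and its cutting angle cannot be told apart, nor can the scan day in the coronal pairs and in 8 of the 9 sagittal pairs.

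The second probes of Emx2 and Six3 gave less. The other Emx2 probe was well above background in 55 of 61 fractions, read from 7.63 to 158, and gave a rostral minus caudal log2 difference of 2.47, 1.71 in C and 3.22 in Co. Its rostral and caudal groups overlapped, and it was not called in the other 3 contrasts. The other Six3 probe was well above background in 3 of 61 fractions and reached 14.0 at most, so that the Six3 values rest on 1 probe.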

How the data were processed

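RNA of 61 fractions of 6 mouse brains was hybridised to 1 single-colour Agilent array each. Per the file headers, the deposited intensity is Agilent Feature Extraction 9.1.3.1's processed signal, which is background-subtracted and not normalized between arrays. Each probe's spots were averaged without those marked as outliers, log2 was taken of the deposited intensity, and the array's 75th percentile was subtracted. The 36573 probes well above background on at least 1 array were fitted with limma 3.58.1 in R 4.3.3 (lmFit and eBayes, Benjamini-Hochberg adjustment, threshold 0.05) over the 28 pairs of fractions matched by the study, with 28 residual degrees of freedom. Fractions of 1 mouse are not separate animals, so that p-values measure the spread between these matched slices. The number of arrays limits the precision, and intensities give no read depth.

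Probes were named through RefSeq accessions, with the probe of the highest mean signal for each gene. The other Six3 probe has no RefSeq accession and was added apart from this rule. The text names the members, for each the 3 genes with the most similar profile, and at most 6 genes of a list by the size of limma's statistic, apart from those said to be chosen after their values were seen. A few genes that this rule names are not reported here. The members and lists were chosen with earlier results of these data known. Deviations from the pair means shared a sign within a mouse (median r 0.28 over 129 pairs of fractions of S, C and H, 115 of them over 0.1), and the mouse was therefore tried as a replicate block. Other alternatives were the scaling, the authors' normalized intensity table, normexp with quantile normalization, filters on dim probes, a floor of 5, slide and scan day, pairing by fraction number, an unmoderated test, other probes and the leaving out of each array. The fit was tested on simulated data. Profiles were compared by Pearson r in Python 3.11.15 with numpy 2.4.6. There were 0 value columns outside the sample map.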

Additional observations from a re-analysis of the deposited data

Results flagged for a closer look

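The most posterior fraction of Co, Co1, had no partner in C and entered no comparison. It gave a signal of 69.68 for Dlx1, 47.93 for Dlx2, 34.01 for Emx2 and 29.71 for Dlx5, each well above background. The 8 arrays of the pairs c1 to c4 next to it read at most 10.9 for Dlx1, 8.19 for Dlx2, 13.4 for Emx2 and 11.4 for Dlx5, none of them well above background. Lhx2 (1294) and Emx1 (560) also lay above the highest value of those arrays (1004 and 486), and Six3 (9.06) did not. In Co1 the summed cortex markers were at 0.758, the striatum markers at 4.73, the bulb markers at 3.43 and the hypothalamus markers at 1.28, against at most 0.396, 3.89, 2.17 and 0.606 in c1 to c4, and their part in the member values was not tested.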

How the results depend on the processing

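No member changed direction under any alternative that was run, and in the rostral minus caudal contrast every member passed under every alternative that tested it, the one without the rostral tip (chosen after seeing the data) included, except Six3 by its other probe (0.62, limma adjusted p 0.0774). With probes well above background on all arrays, Emx1 and Lhx2 alone were tested, and 2 passed in each comparison but the rostral tip, where 1 did. With the slide as a fixed block 3 members passed over the horizontal pairs and 2 dorsal to ventral. With pairing by fraction number 2 passed over the horizontal pairs, 1 over the sagittal pairs, 1 at the rostral tip, 2 dorsal to ventral and 2 at the midline, and the cause was not tested. The sagittal and midline values use S1 to S9, and by the titled numbers 2 to 10 the sagittal pairs are those reported. The other probes of Emx2 and Six3 left 3 over the sagittal pairs. Between the mice 4 members passed with a floor of 5. With no replicate block, which here means the plane in the model in place of the 28 pairs, 0 passed in limma. With pairing by number 0 passed as well (0 at an unadjusted p under 0.05 in both). Leaving out 1 array gave 4 to 7 members dorsal to ventral and over the horizontal pairs, 5 to 7 over the sagittal pairs and at the midline, 6 at the rostral tip, 2 to 4 between the mice and 7 elsewhere. Over the horizontal pairs Dlx2 was lost without H1, H2, H4, H5, Ho2, Ho3, Ho5 or Ho6 (highest adjusted p 0.0967) and Emx2 without H1 (0.252) or Ho6.

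Over the horizontal pairs Dlx2 did not pass with the median as the scale or in the authors' normalized table, and Emx2 did not pass dorsal to ventral with normexp or with all non-control probes. The slide as a random block brought in Dlx1 and Dlx2 over the sagittal pairs, Dlx1 over the horizontal pairs and Lhx2 at the rostral tip. The mouse as a replicate block brought in Dlx1 over the horizontal pairs and Lhx2 at the rostral tip (adjusted p 0.0455 and 0.0306). Over all probes it raised the calls from 4346 to 10351 (horizontal pairs), 4042 to 9741 (sagittal pairs), 5197 to 9931 (dorsal to ventral) and 7163 to 12149 (midline), and scan day as a block gave 10965, 10170, 10599 and 12354. The slide as a random block gave 8617 and 7545 over the horizontal and sagittal pairs, and as a fixed block 3538 against 17990 in the rostral minus caudal contrast and 1612 dorsal to ventral. Pairing by number gave 10267 against 17172 over the coronal pairs, 1142, 747, 2649 and 3134 in the comparisons named first, and 1874 against 11640 at the rostral tip. Probes above background on all arrays gave 14707 calls against 22351 over all pairs. No replicate block (the plane in place of the pairs) gave 13776 against 23087 between the mice. Leaving out 1 array gave as few as 3185 calls dorsal to ventral. Neither fixed block could be fitted over all pairs or between the mice, nor the slide in the sagittal comparisons. Signals near background limit Six3 and the posterior Dlx and Emx2 values.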

Other observations

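Genes of the cells that the Dlx factors act in were followed beside them. Gad1, which makes GABA, was the 1 of 4 GABA synthesis and transport genes that passed rostrally (log2 difference 0.80) and at the rostral tip (1.37), and Slc32a1, the vesicular GABA transporter, was lower dorsally (−0.54) and higher at the midline (0.58). Of 6 neuroblast and proliferation genes, 5 were higher rostrally, among them Dcx (3.16), a microtubule protein of migrating neurons, Igfbpl1 (3.98) and Sox11 (2.10). At the tip 4 were higher than at the striatal level, with Dcx at 2.87 and Cd24a at 1.84, and dorsally 4 were lower, with Cd24a at −2.01 and Igfbpl1 at −2.07. Of all probes 49.2% were called rostrally, 31.9% at the tip, 14.2% dorsal to ventral and 19.6% at the midline. These are limma calls at the same threshold, and the lists share no gene with the members.

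Of 18 regulators of the midbrain and hindbrain, 11 were lower rostrally, where 28.9% of all probes were, with En2 at −6.04, Hoxb3 at −4.04 and Hoxb5 at −7.90, against a median of −0.12 over all probes. At the midline 11 were higher, against 10.5% of all probes, with Foxa2, a floor plate gene, at 4.69 and Gata3 at 4.61. Hoxb3 and Hoxb5 also belong to the medulla markers.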
